A study of Mus musculus with 8 samples.

Results

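The 10 bile acid and organic anion transporters of the hepatocyte described here were Slc10a1, Slco1a1, Slco1a4, Slco1b2, Slco2b1, Slc22a7, Abcb11, Abcc2, Abcc3 and Abcc4. They were chosen by name as the main carriers that take these compounds up from blood, secrete them into bile or return them to blood. This choice, like that of the gene lists below, was made with earlier results of these data known. Their counts beside the shares of all probe sets are thus a description. They are 10 of the 18193 genes named on the arrays. The arrays held 18 probe sets for them among 45037 probe sets, and every one of the 10 genes had at least 1. Male Pemt+/+ mice and male Pemt−/− mice, in which the gene for phosphatidylethanolamine N-methyltransferase is deleted in the whole body, were fed a high fat-high sucrose (HFHS) chow, and liver RNA was hybridised to Affymetrix GeneChip arrays after 1, 2, 3 and 4 weeks. Each genotype had 1 array per week, so that 4 arrays stood for each genotype and 8 were available in all. All mice ate the HFHS chow, no array of standard chow was analysed here, and no source used here gave the strain. In the study's methods, 4 mice of each genotype entered this feeding experiment, with nothing on whether an array held RNA of 1 mouse or of several. Since 1 array stood for each genotype and week, the spread within a genotype joined differences between weeks, mice and arrays.

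Hepatocytes take bile acids from portal blood across the basolateral membrane, mainly through Ntcp, the sodium-dependent carrier encoded by Slc10a1, and through the sodium-independent organic anion transporting polypeptides of the Slco family. Bile acids then leave across the canalicular membrane through the bile salt export pump, encoded by Abcb11, while Mrp2, encoded by Abcc2, secretes conjugated bilirubin and glutathione conjugates. Mrp3 and Mrp4, encoded by Abcc3 and Abcc4, sit in the basolateral membrane and return conjugates and bile acids to blood. In cholestatic liver the uptake carriers are known to fall and the basolateral exporters to rise, and the bile acid receptor Fxr, encoded by Nr1h4, is the best known regulator of the bile salt export pump.

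Values are the deposited intensities, which had been scaled to a trimmed mean of 500 on each array. Pemt itself had a mean of 5543 ± 437 (SD, n = 4) in the livers of Pemt+/+ mice against 224 ± 26.4 (SD, n = 4) without the gene, 23.2-fold lower (limma, adjusted p = 5e-07), and in each of the 4 weeks the Pemt−/− array lay far below its partner. Of the 18 probe sets, 15 passed a filter on low values, with a mean log2 level over all arrays above the 40th percentile. The 3 that did not were 2 of the 5 for Slco1b2 and 1 of the 3 for Slco2b1, with intensities between 3.94 and 96.8 over the 8 arrays. Where a gene had several probe sets, the brightest spoke for the gene, and 6 genes had 1 probe set only. Levels were not set against each other between genes, since probe sets differ in brightness.

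Of the 6 uptake carriers 5 were lower in Pemt−/− liver and the other, Slco1a4, was higher. Of the 15 probe sets, 10 (66.7%) passed the test as lower in Pemt−/− liver, where 5.86% of the 27022 probe sets tested did so. Without week 3 the count was 3, without week 4 it was 6, and with the intensity trend left out of eBayes it was 3. In the opposite direction 3 (20%) passed, beside 10.3% of all probe sets, and 2 did not pass. Counted by gene, 6 were lower, 3 were higher and 1 was not called at an adjusted p of 0.05 (limma with week as a factor, Benjamini-Hochberg over all probe sets tested). In 9 of the 15 all 4 Pemt−/− arrays lay below all 4 Pemt+/+ arrays, a pattern of 8.96% of all probe sets, in 3 they all lay above, a pattern of 12.8% of all, and in 3 the genotypes overlapped. In these bulk samples fewer hepatocytes and less transporter RNA per hepatocyte cannot be told apart.

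**Figure D1:**
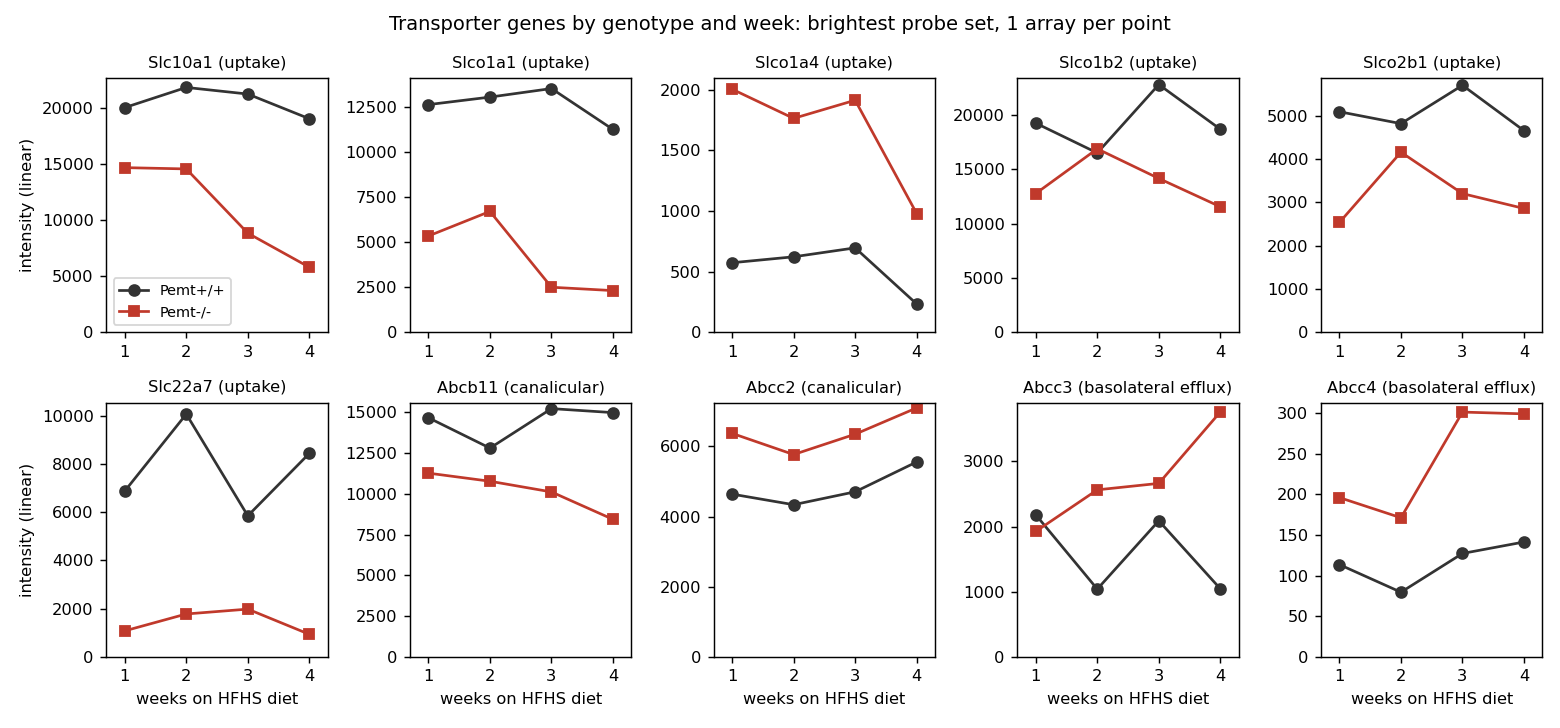
Deposited intensity (y axis, linear from 0, with a scale of its own for each gene) of the brightest probe set of each transporter against weeks on HFHS chow (x axis), with 1 point per array, Pemt+/+ and Pemt−/− joined by separate lines. Slc10a1 in Pemt−/− liver runs down from 14700 at week 1 to 5799 at week 4, while the 4 Pemt+/+ arrays stay between 19069 and 21866.

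Slc10a1 (GRCm38.p6, chromosome 12, 80953185 to 80968705) encodes Ntcp, the main carrier of conjugated bile acids into the hepatocyte. Its intensity in Pemt+/+ liver was 20066, 21866, 21275 and 19069 at weeks 1, 2, 3 and 4. In Pemt−/− liver it was 14700, 14584, 8844 and 5799 at the same weeks. The Pemt−/− arrays all lay below the Pemt+/+ arrays. Those of weeks 1 and 2 were nearly level, and those of weeks 3 and 4 were lower in turn. The means were 20569 ± 1249.5 (SD, n = 4) and 10982 ± 4405.5 (SD, n = 4), a difference of -1.0 ± 0.19 (SE) on the log2 scale, 2.00-fold (adjusted p = 0.0097). A second probe set gave -0.98 ± 0.20 (SE, adjusted p = 0.0122). Neither call held with the arrays of week 3 left out, where the adjusted p were 0.0518 and 0.0628.

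Slco1a1 (chromosome 6, 141907281 to 141946962) encodes Oatp1a1, a carrier of sulfated and glucuronidated steroids and of bile acids whose RNA is known to be higher in male than in female mouse liver. Its intensity was 12640, 13058, 13533 and 11258 over the 4 weeks in Pemt+/+ liver. In Pemt−/− liver the values were 5342, 6707, 2495 and 2308. The highest Pemt−/− array was thus well under the lowest Pemt+/+ array, and weeks 3 and 4 were lower than weeks 1 and 2. The difference was -1.73 ± 0.23 (SE) on the log2 scale, 3.31-fold (95% interval of the log2 difference -2.25 to -1.20, adjusted p = 0.0024). The other probe set for the gene differed by -1.91 ± 0.25 (SE, adjusted p = 0.00204). Male-biased genes of the liver, a list of 9 measured genes that does not include Slco1a1, were all lower, with a median log2 difference of -2.64, and their summed intensity was 146200 to 186700 in Pemt+/+ and 29130 to 59980 in Pemt−/− arrays. Among them were Hsd3b5, a steroid dehydrogenase, at -5.02 ± 0.40 (SE, adjusted p = 0.000484) and Elovl3, a fatty acid elongase, at -3.41 ± 0.24 (SE, adjusted p = 0.000392). Of 8 measured female-biased genes 2 were higher, none was lower, 6 were not called and the median was 1.05. By week the median was 1.07, 1.62, 0.23 and 0.16, so that it was small in weeks 3 and 4. The part of these sex-biased genes in the Slco1a1 result was not tested.

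Slc22a7 (chromosome 17, 46432185 to 46438477) encodes Oat2, a basolateral carrier of small organic anions, and showed the widest difference of the 10 genes. Its intensity in Pemt+/+ liver was 6882, 10079, 5854 and 8447 at weeks 1 to 4. In Pemt−/− liver it was 1077, 1778, 1980.0 and 934. Every Pemt−/− array was lower than its partner of the same week, by the most at week 4 (ratio 0.111) and the least at week 3 (ratio 0.338), and the genotypes did not overlap. The means were 7815 ± 1848 (SD, n = 4) and 1442 ± 514 (SD, n = 4), a log2 difference of -2.47 ± 0.21 (SE), 5.52-fold (adjusted p = 0.000591).

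Slco1a4 (chromosome 6, 141805438 to 141856284) encodes Oatp1a4, a carrier of organic anions and cardiac glycosides, and moved against the other uptake genes. Its intensity in Pemt+/+ liver was 573, 622, 696 and 233. In Pemt−/− liver it was 2005, 1764, 1914 and 979. All Pemt−/− arrays were above all Pemt+/+ arrays, and week 4 was the lowest week in both genotypes. On the log2 scale the difference was 1.68 ± 0.13 (SE), 3.19-fold (95% interval 1.38 to 1.97, adjusted p = 0.00046). Slco1a4, Slco1a1 and Slco1b2 lie within 1 cluster of Slco genes on chromosome 6, between 141629452 and 141946962.

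Slco1b2 (chromosome 6, 141629452 to 141686646), the gene for the liver-specific carrier Oatp1b2, differed less. Its intensity was 19259.9, 16513, 22817 and 18699 in Pemt+/+ liver. In Pemt−/− liver it was 12774, 16893, 14164 and 11555. The Pemt−/− array of week 2 was level with its partner (ratio 1.02), the other 3 were lower (ratios 0.663, 0.621 and 0.618), and the genotypes overlapped. The log2 difference was -0.48 ± 0.13 (SE, adjusted p = 0.0349), 1.40-fold. The other 2 probe sets tested gave -0.46 ± 0.10 (SE, adjusted p = 0.0167) and -0.19 ± 0.12 (SE, 95% interval -0.47 to 0.08, adjusted p = 0.317), so that the probe sets did not all pass. The Slco1b2 call was lost under 8 of 14 alternatives, among them eBayes without the intensity trend (adjusted p = 0.123), quantile normalization (-0.28, adjusted p = 0.113) and each of weeks 1, 3 and 4 left out (adjusted p = 0.127, 0.166 and 0.146), and without week 2 the difference was -0.66 (adjusted p = 0.00133).

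Slco2b1 (chromosome 7, 99657804 to 99711340) encodes Oatp2b1, a carrier of sulfated steroids. Its intensity was 5099, 4824, 5711 and 4661 in Pemt+/+ liver and 2537, 4163, 3205 and 2861 in Pemt−/− liver. The genotypes did not overlap, and week 2 was the highest week in Pemt−/− liver. This gave a log2 difference of -0.69 ± 0.13 (SE, adjusted p = 0.0097), 1.61-fold, and for the second probe set -0.55 ± 0.14 (SE, adjusted p = 0.0316). Without week 3 the adjusted p were 0.0578 and 0.101, and the second was also lost without week 1 (0.115) or week 4 (0.144).

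The promoters of Slco1a1 and Slco1a4 are shown because these neighbouring genes moved in opposite directions. That of Slc10a1 is shown because its RNA was lowest in weeks 3 and 4 in Pemt−/− liver. Each is a RefSeq window of GRCm38.p6, 5′ to 3′ on the minus strand, from 250 bases before to 50 after a transcription start, at chr6:141946913-141947212 for Slco1a1, chr6:141856171-141856470 for Slco1a4 and chr12:80968656-80968955 for the first of the Slc10a1 windows. Capitals mark the letters of 3 motifs searched on both strands. TTCNNNGAA is a palindrome read by Stat5, and TGACNNNGC is the core of the antioxidant response element. AGGTCA is a single site of a paired nuclear receptor element, not the whole element.
Slco1a1: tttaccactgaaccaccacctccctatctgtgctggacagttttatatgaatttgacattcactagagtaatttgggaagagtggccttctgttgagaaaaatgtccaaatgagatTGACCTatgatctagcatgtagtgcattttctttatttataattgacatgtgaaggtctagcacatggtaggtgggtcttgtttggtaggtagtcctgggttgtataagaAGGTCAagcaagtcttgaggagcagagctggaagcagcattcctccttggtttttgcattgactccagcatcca
Slco1a4: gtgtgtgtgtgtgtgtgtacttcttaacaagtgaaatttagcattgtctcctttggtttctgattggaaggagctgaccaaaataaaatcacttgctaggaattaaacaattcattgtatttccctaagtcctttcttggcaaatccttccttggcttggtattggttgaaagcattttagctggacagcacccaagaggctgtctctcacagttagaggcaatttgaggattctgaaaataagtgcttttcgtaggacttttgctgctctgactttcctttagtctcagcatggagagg
Slc10a1: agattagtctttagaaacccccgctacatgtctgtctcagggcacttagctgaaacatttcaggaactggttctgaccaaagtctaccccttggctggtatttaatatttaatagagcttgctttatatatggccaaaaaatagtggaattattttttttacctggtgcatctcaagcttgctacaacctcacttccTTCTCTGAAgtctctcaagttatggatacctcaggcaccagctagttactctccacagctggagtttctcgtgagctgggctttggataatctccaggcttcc
The Slco1a1 window held AGGTCA on each strand, 134 and 24 bases before the start. The Slco1a4 window held none of the 3 motifs, and the first Slc10a1 window held TTCTCTGAA 53 bases before the start. The second Slc10a1 window, not shown, held AGGTCA 87 bases before its start. Windows were at hand for 8 of the 10 genes, 12 in all, and Slc22a7 and Abcc3 had no entry. TTCNNNGAA was in 5 of the 12 and in 8.3% of the 32851 promoters of the table, AGGTCA in 5 (16.26% of all) and TGACNNNGC in 3 (12.39% of all). No matches overlapped, and such a match is a description of letters only.

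The canalicular genes moved apart. Abcb11 (chromosome 2, 69238282 to 69342616), the bile salt export pump, had intensities of 14672, 12808, 15232 and 14986 in Pemt+/+ liver. In Pemt−/− liver they were 11271, 10774, 10118 and 8435. The Pemt−/− values were all lower and went down a little each week, while the ratios to Pemt+/+ were 0.768, 0.841, 0.664 and 0.563, the highest at week 2. The log2 difference was -0.51 ± 0.11 (SE, adjusted p = 0.0147), 1.43-fold, and it missed the threshold without week 3 (adjusted p = 0.0861) or week 4 (0.0765).

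Abcc2 (chromosome 19, 43782308 to 43838332), whose product Mrp2 exports conjugated bilirubin, had intensities of 4639, 4337, 4706 and 5557 in Pemt+/+ liver. In Pemt−/− liver they were 6372, 5768, 6349 and 7098. The Pemt−/− array was higher by a like ratio in every week, between 1.28 and 1.37. The log2 difference was 0.41 ± 0.08 (SE, adjusted p = 0.0123), 1.33-fold. It was lost without week 3 (adjusted p = 0.0828) or week 4 (0.0558), and with each array centred on the median of the probe sets kept it was 0.26 (adjusted p = 0.0999).

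On the basolateral side, Abcc4 (chromosome 14, 118482692 to 118707856), the gene for Mrp4, which exports bile acids together with glutathione, was dim but higher in all 4 weeks. Its intensity was 114, 79.5, 127 and 141 in Pemt+/+ liver and 196, 171, 301 and 299 in Pemt−/− liver, so that the lowest Pemt−/− array exceeded the highest Pemt+/+ array. Abcc4 thus differed by 0.96 ± 0.17 on the log2 scale (SE, adjusted p = 0.00653), 1.94-fold. Abcc3 (chromosome 11, 94343295 to 94393017), the gene for Mrp3, which exports glucuronides, did not pass. Its intensity was 2181, 1039.6, 2089 and 1044 in Pemt+/+ liver. In Pemt−/− liver it was 1925, 2564, 2663 and 3760.3. The Pemt+/+ values alternated between weeks, and the genotypes overlapped. The Pemt−/− array was the lower of the pair at week 1 (ratio 0.883), and the widest gap was at week 4 (ratio 3.60). The log2 difference was 0.82 ± 0.28 (SE, 95% interval 0.18 to 1.46, adjusted p = 0.0826), and without week 1 it was 1.16 (adjusted p = 0.0397).

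The promoters of the exporters that were higher are shown for comparison with the uptake genes above: Abcc2 at chr19:43782058-43782357 on the plus strand, and Abcc4 at chr14:118706170-118706469 and chr14:118676882-118677181 on the minus strand, each 5′ to 3′ with the same capitals.
Abcc2: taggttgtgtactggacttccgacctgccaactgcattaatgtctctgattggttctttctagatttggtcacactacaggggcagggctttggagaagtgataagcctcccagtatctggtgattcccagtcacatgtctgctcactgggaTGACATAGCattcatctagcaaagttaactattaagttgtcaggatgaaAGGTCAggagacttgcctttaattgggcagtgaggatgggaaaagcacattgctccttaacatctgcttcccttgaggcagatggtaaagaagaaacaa
Abcc4, first window: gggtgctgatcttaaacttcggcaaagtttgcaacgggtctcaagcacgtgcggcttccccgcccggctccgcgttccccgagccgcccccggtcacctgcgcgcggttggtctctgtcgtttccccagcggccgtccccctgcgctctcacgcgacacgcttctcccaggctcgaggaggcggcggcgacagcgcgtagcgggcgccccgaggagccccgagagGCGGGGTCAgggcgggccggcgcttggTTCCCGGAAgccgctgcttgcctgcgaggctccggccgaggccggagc
Abcc4, second window: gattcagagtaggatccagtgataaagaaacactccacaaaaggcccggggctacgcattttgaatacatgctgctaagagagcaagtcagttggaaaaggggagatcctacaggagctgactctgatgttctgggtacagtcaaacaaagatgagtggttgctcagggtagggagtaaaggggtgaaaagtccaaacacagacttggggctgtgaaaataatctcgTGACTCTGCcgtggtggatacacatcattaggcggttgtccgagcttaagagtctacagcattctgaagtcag
TGACNNNGC, the antioxidant response element core, was read as TGACATAGC 98 bases before the Abcc2 start and as TGACTCTGC 23 bases before the start of the second Abcc4 window. In the first Abcc4 window it lay on the opposite strand, as GCGGGGTCA, and that window also held TTCCCGGAA, a match to TTCNNNGAA. Abcc2 also held AGGTCA 49 bases before its start. All 3 windows with TGACNNNGC among the 12 were those of Abcc2 and Abcc4. The window of Slco1a4, which was also higher, held no match. Whether these letters bear on the RNA levels was not tested.

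**Figure D2:**
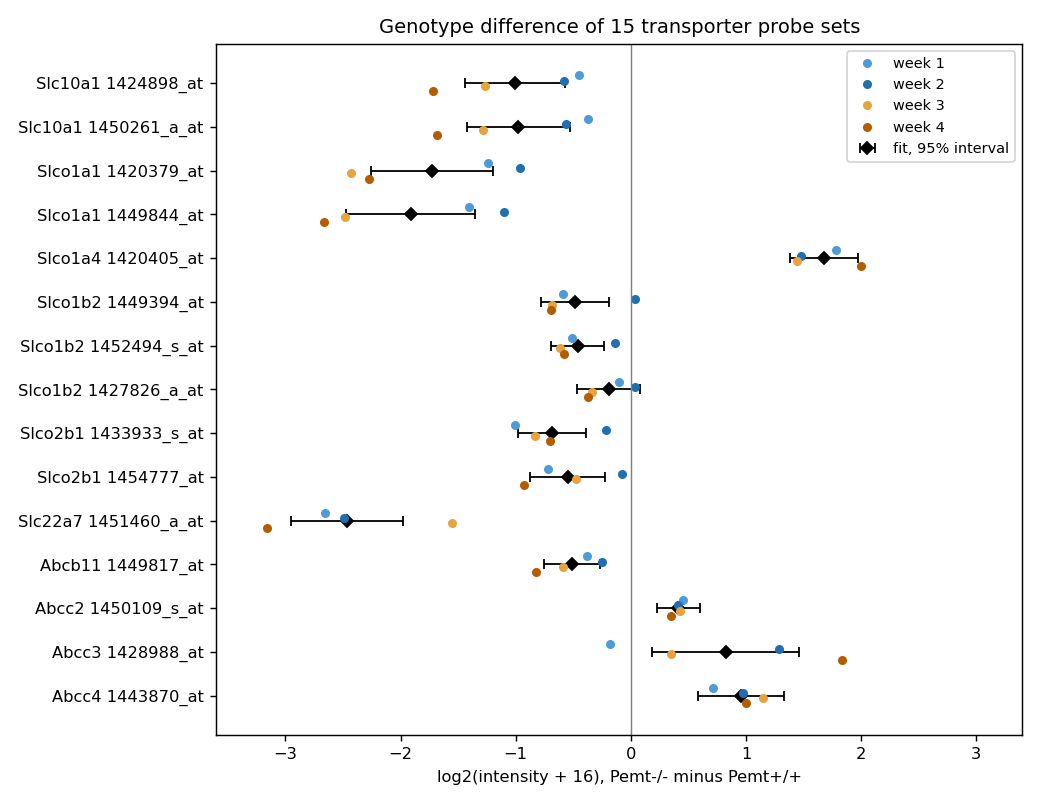
Log2 difference between Pemt−/− and Pemt+/+ liver (x axis) for each of the 15 probe sets tested, listed by gene, with the limma estimate and its 95% interval as point and bar and the 4 weekly log2 differences as coloured points. Slc22a7 stands farthest below 0 at -2.47 and Slco1a4 farthest above at 1.68, and the interval of the third Slco1b2 probe set crosses 0.

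The study read its arrays by weekly ratios over 2 or under 0.5, so these were counted too, with 1 array on each side and hence no test. At week 1, 1 of the 15 probe sets had a Pemt−/− to Pemt+/+ ratio of 2 or more (7.56% of all probe sets did) and 4 had 0.5 or less (4.09% of all). At week 2 the counts were 3 (6.5% of all) and 2 (5.66% of all). At week 3 they were 2 (9.79% of all) and 5 (5.61% of all), and at week 4 they were 3 (10.2% of all) and 5 (5.85% of all). Slco1a4 passed 2 in every week, with ratios of 3.50, 2.84, 2.75 and 4.21, and Abcc4 in weeks 2, 3 and 4, with 2.15, 2.37 and 2.12. Slc22a7 was under 0.5 in all 4 weeks. Slc10a1 was under 0.5 in weeks 3 and 4 alone (0.416 and 0.304), after 0.733 and 0.667 in weeks 1 and 2. Slco1a1 was at 0.423, 0.514, 0.184 and 0.205 by its brighter probe set, so that week 2 alone fell outside the threshold, by little. Its other probe set was under 0.5 in all 4 weeks, with 0.465 at week 2. Slco2b1 was just inside at week 1 by its brighter probe set (0.498), while its second tested probe set was outside (0.604). Abcc3 was over 2 in weeks 2 and 4 (2.47 and 3.60). None of the tested probe sets of Slco1b2, Abcb11 and Abcc2 reached either threshold. Week 2 was the week in which the fewest uptake genes, 4 of 6, were lower in Pemt−/− liver, against 5 of 6 in the other weeks.

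Change over the weeks was then fitted as a slope for each genotype. In Pemt+/+ liver 0 of the 15 probe sets changed per week by limma, as did 0% of all probe sets, and at an unadjusted p under 0.05 the count was 1, Slco1a4, at -0.36 ± 0.16 (SE) on the log2 scale per week, where 5.45% of all probe sets had such a p. In Pemt−/− liver 1 of the 15 passed, beside 0.104% of all probe sets, and 6 did at an unadjusted p under 0.05, where 10.3% of all probe sets did. The one that passed was the second probe set of Slc10a1, which fell by 0.53 ± 0.07 (SE) on the log2 scale per week (adjusted p = 0.0363), from 9449 at week 1 through 8788 and 5082 to 3294 at week 4. The brighter Slc10a1 probe set had a slope of -0.47 ± 0.07 (SE, adjusted p = 0.0501), just outside the threshold. Both Slc10a1 probe sets were level in Pemt+/+ liver, with slopes of -0.03 ± 0.07 and -0.07 ± 0.07 (SE). Slopes in Pemt−/− liver were below 0 for 11 of the 15 probe sets. Slco1a1 had -0.50 ± 0.12 (SE, adjusted p = 0.145) and -0.62 ± 0.10 (SE, adjusted p = 0.0615), and Abcb11 had -0.13 ± 0.05 (SE, adjusted p = 0.42). Abcc3 had a positive slope of 0.29 ± 0.14 (SE, adjusted p = 0.535).

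The difference between the slopes is the test of whether the genotype gap widened. None of the 15 probe sets passed it by limma, as with 0% of all probe sets, and 5 had an unadjusted p under 0.05, beside 6.73% of all. For Slc10a1 the slopes differed by -0.45 ± 0.10 (SE, unadjusted p = 0.00115, adjusted p = 0.498) and by -0.46 ± 0.10 (SE, unadjusted p = 0.000764, adjusted p = 0.498), and 0.498 was the smallest adjusted p of any probe set. The difference was -0.46 ± 0.16 (SE, adjusted p = 0.685) for Slco1a1 and 0.51 ± 0.20 (SE, 95% interval 0.06 to 0.96, adjusted p = 0.698) for Abcc3. The single call on Pemt−/− slopes depended on 1 array, since without any 1 of the Pemt−/− arrays of weeks 3 and 4 or the Pemt+/+ arrays of weeks 1, 3 and 4 the count was 0, and without the Pemt−/− array of week 2 it was 4.

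**Figure D3:**
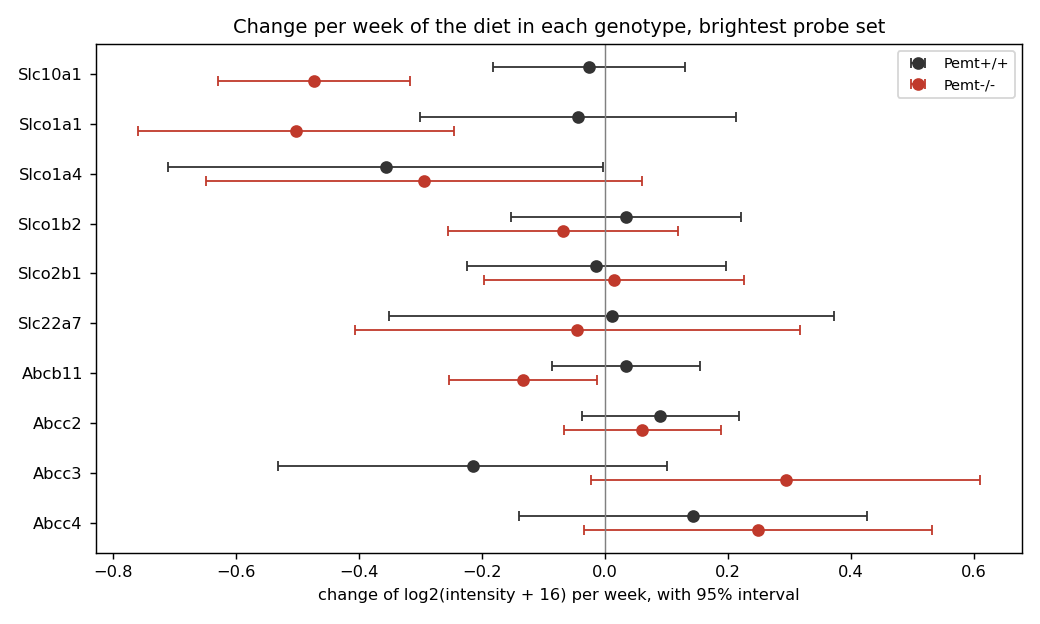
Change per week on the log2 scale (x axis) of the brightest probe set of each of the 10 transporters in Pemt+/+ (black) and in Pemt−/− liver (red), with points for the fitted slopes and bars for their 95% intervals. The Slc10a1 interval of Pemt−/− liver lies below 0 and apart from that of Pemt+/+ liver, while 0 of the slope differences passed the test after adjustment over all probe sets.

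A list of 26 other measured genes held carriers of bile acids, organic ions and bile lipids and their relatives, such as Abcc9. Of these, 7 were higher and 7 lower in Pemt−/− liver, with a median log2 difference of -0.17. Over all 12949 genes tested, 12.6% were higher, 7.51% were lower and the median was 0.02. The multidrug exporter Abcb1a was higher at 1.39 ± 0.16 (SE, adjusted p = 0.00151), as were Abcc1, an exporter of glutathione conjugates, at 1.72 ± 0.24 (SE, adjusted p = 0.00274), and Abcc9, the regulatory subunit of a potassium channel, at 0.80 ± 0.11 (SE, adjusted p = 0.00251). Slc22a30, a relative of Slc22a7, was lower at -1.0 ± 0.12 (SE, adjusted p = 0.00157). Atp8b1, a flippase that keeps the canalicular membrane stable, was lower at -0.65 ± 0.11 (SE, adjusted p = 0.00549).

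Of 27 measured transcription factors and cofactors that act on transporter genes, 1 was higher and 4 were lower, with a median log2 difference of -0.21. Nfe2l2, the gene for Nrf2, which drives genes of the antioxidant response, was 3472 ± 195 (SD, n = 4) for Pemt+/+ against 6174 ± 731 (SD, n = 4) for Pemt−/− arrays, higher in all 4 weeks (0.82 ± 0.10 SE, adjusted p = 0.00151). Cebpa, a hepatocyte transcription factor, was lower at -0.78 ± 0.09 (SE, adjusted p = 0.00165), and Hnf4a, which maintains hepatocyte gene expression, at -0.63 ± 0.09 (SE, adjusted p = 0.00334). Ppara, a receptor for fatty acids, was lower at -0.62 ± 0.12 (SE, adjusted p = 0.0103), and Nr3c1, the glucocorticoid receptor, at -0.37 ± 0.09 (SE, adjusted p = 0.0301). These values are of the brightest probe set: 2 of 4 tested probe sets of Hnf4a and 1 of 5 of Nr3c1 passed, while all those of Nfe2l2, Cebpa and Ppara did. Nr1h4, the bile acid receptor gene, was 3090 ± 308.5 (SD, n = 4) for Pemt+/+ against 3063 ± 321 (SD, n = 4) for Pemt−/− arrays, a difference of -0.01 with a 95% interval of -0.27 to 0.25 (adjusted p = 0.952). Nr1i2 and Nr1i3, the xenobiotic receptors Pxr and Car, differed by 0.09 (95% interval -0.19 to 0.37, adjusted p = 0.674) and 0.08 (95% interval -0.30 to 0.46, adjusted p = 0.781). Nr0b2, the gene for the corepressor Shp and a target of Fxr, was 3374, 2753, 4993 and 4164 in Pemt+/+ liver. In Pemt−/− liver it was 4294, 3022, 1732 and 913. The Pemt−/− array was above its partner in weeks 1 and 2 and below it in weeks 3 and 4, and the mean difference of -0.80 ± 0.37 (SE) did not pass (adjusted p = 0.184).

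Of 16 measured target genes of Nrf2, a list that leaves out the transporters themselves, 10 were higher and 0 were lower by limma, with a median log2 difference of 0.57. The glutathione transferase genes Gstm3, Gsta2 and Gstm1 were higher at 2.94 ± 0.12, 1.89 ± 0.13 and 0.83 ± 0.11 (SE). Cbr3, a carbonyl reductase, was higher at 2.94 ± 0.37 (SE), and Srxn1, which restores peroxiredoxins, at 1.52 ± 0.19 (SE), where 3 of its 4 tested probe sets passed. These 5 genes had adjusted p between 3.2e-05 and 0.00225. The 6 not called included Nqo1 at 0.60 ± 0.22 (SE, adjusted p = 0.0988), Gclc at 0.18 ± 0.12 (SE, adjusted p = 0.356) and Gclm at -0.05 ± 0.12 (SE, adjusted p = 0.808), so that the list did not move as 1. The part of Nrf2 in the transporter results was not tested.

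Genes that make bile acids were mostly lower: 11 of 16 measured genes were lower and 1 was higher, with a median log2 difference of -0.45. Cyp7b1, an oxysterol hydroxylase of the alternative pathway and a male-biased gene that is also on that list, was lower at -3.64 ± 0.21 (SE, adjusted p = 0.000166). Cyp27a1, which starts the alternative pathway, was lower at -0.86 ± 0.12 (SE, adjusted p = 0.00285), as was Slc27a5, which activates bile acids for conjugation, at -0.86 ± 0.13 (SE, adjusted p = 0.00416), and the reductase gene Akr1d1 at -0.58 ± 0.12 (SE, adjusted p = 0.0138), by 1 of its 2 tested probe sets. Cyp39a1, a hydroxylase of another oxysterol, was higher at 0.70 ± 0.13 (SE, adjusted p = 0.0083). Of 12 genes that move transporters to the membrane or anchor them there, 2 were higher and 3 lower, with a median of -0.16. Msn, the gene for moesin, was higher at 1.29 ± 0.14 (SE, adjusted p = 0.00122), and Rdx, the gene for radixin, the anchor of Mrp2 in the canalicular membrane, was lower at -0.35 ± 0.09 (SE, adjusted p = 0.0347), by 1 of 2 tested probe sets for Msn and 1 of 3 for Rdx.

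Markers of the cell types that liver RNA holds moved as well. All 19 measured hepatocyte markers had a difference below 0 and 17 were lower by the test, with a median of -0.43 and a range of -1.06 to -0.22. Their summed intensity was 723900 to 779600 over the Pemt+/+ arrays and 499200 to 662000 over the Pemt−/− arrays. Slco1a1 and Slc22a7, at -1.73 and -2.47, lay below the range of these markers, and Slc10a1, Slco1b2, Slco2b1 and Abcb11 lay within it. Slc10a1 lay within it by F11 alone, at -1.06, since the next lowest marker, Hal, was at -0.87. The markers differed widely in brightness, with means in Pemt+/+ liver from 3628 for F11 to 65550 for Apoa1. Most were brighter than Slco1a1 and Slc22a7, which had means of 12622 and 7815. Whether brightness bears on the size of these differences was not tested, so the range is a rough yardstick. By week, the brightest Slc10a1 probe set differed by -0.45, -0.58, -1.26 and -1.71, against marker medians of -0.46, -0.18, -0.54 and -0.51. Each week had 1 array per genotype, so these weekly values were not tested. Macrophage markers (17 of 19 higher, 0 lower by limma, median 1.40) summed to 20410 to 29520 and 47930 to 72530. Stellate cell markers (15 of 15 higher, median 1.54) summed to 17660 to 23760 in Pemt+/+ and 50050 to 70040 in Pemt−/− arrays. Cholangiocyte markers (2 of 7 higher, 0 lower by limma, median 0.46) summed to 1005 to 1411 and 1624 to 2569, and endothelial markers (1 of 14 higher, 4 lower, median -0.16) to 11670 to 15990 and 8437 to 15400. All 11 measured genes of cell division were higher, with a median of 2.66. No marker was at 0 on any array, and the part of these cell types in the transporter results was not tested.

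**Figure D4:**
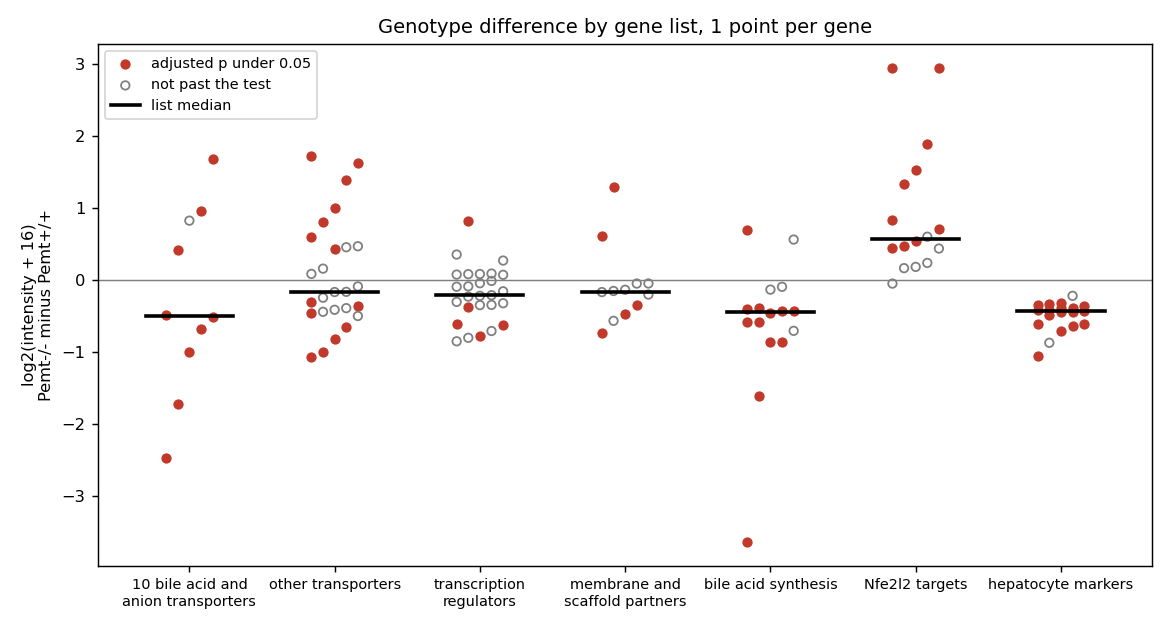
Log2 difference between Pemt−/− and Pemt+/+ liver (y axis) of every measured gene of the transporters and 6 other lists (x axis), with 1 point per gene, filled where it passed the test, and a bar at the list median. The 10 transporters spread from -2.47 to 1.68 around a median of -0.50, while the 19 hepatocyte markers all lie between -1.06 and -0.22.

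For each transporter, the genes with the most similar course over the 8 arrays were found by the mean absolute difference of their centred log2 values among 12948 genes. Closest to Slc10a1 were Masp2, a protease of complement activation, at 0.11, Hsd11b1, which activates glucocorticoids, at 0.12 and Afm, a plasma carrier protein, at 0.13, where Slc10a1 itself deviated from its own mean by 0.51. Lifr at 0.15, Mcm10 at 0.15 and Sult2a8 at 0.16 were closest to Slco1a1, and Galc at 0.07, Hand2 at 0.09 and Otud1 at 0.10 to Abcc4. Slco1a4 and Slc22a7 had no gene as close: Abcg3 was at 0.31, Sybu at 0.33 and Gm6958 at 0.34 for Slco1a4, and Thrsp was at 0.32, Adh6-ps1 at 0.38 and Serpina4-ps1, a gene of the male-biased list, at 0.40 for Slc22a7. The own deviations of these transporters were 0.84 and 1.23. Closest to Slco1b2 were Casp9, Pcbd2 and Bco2, each at 0.05, and to Slco2b1 Slc38a3, D2hgdh and Psen2, each at 0.07. Abcb11 was closest to Hoga1 and Surf1 at 0.05 and Pgm1 at 0.06, and Abcc2 to Pfdn4 at 0.04 and Nup98 and Cltc at 0.05. For Abcc3 they were Ank3 at 0.09, Tchp at 0.18 and Ptp4a3 at 0.19. The points of these courses share their arrays and the genotype gap, so that they are given as a description.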

How the data were processed

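Liver RNA of male Pemt+/+ and Pemt−/− mice on HFHS chow was measured on 8 Affymetrix arrays, 1 per genotype and week over 4 weeks. The deposited values were intensity values per probe set on a linear scale, made by the authors with Affymetrix Expression Console per the labels. The trimmed mean of each array, without its outer 2% on both sides, was 500, and medians were 73.8 to 81.3. The number of arrays limits the precision.

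From the 45101 probe sets, 64 controls were left out. Of the other 45037, 34945 had 1 gene symbol in the platform annotation, 932 had several and 9160 had none, and no gene was named from a probe set with several. Values were taken as log2(intensity + 16), so that the changes of dim genes are understated, and probe sets with a mean above the 40th percentile were kept, 27022 of them for 12949 genes. In limma 3.58.1 (R 4.3.3), week as a factor and genotype were fitted on all 8 arrays (lmFit, eBayes with intensity trend, two-sided, Benjamini-Hochberg over all probe sets kept, threshold 0.05). Week thus paired the arrays, as the labels give it. Slopes used week as a number within each genotype. The methods give 4 mice per genotype, but no label ties an array to a mouse, so the differences among arrays behind the p-values may be partly technical.

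The transporters and gene lists were chosen with earlier results of these data known. A few genes, Cyp7b1, Slc22a28 and Cux2 among them, stood on more than 1 list. Named were the 10 genes with every probe set, Pemt, genes from the 5 with the smallest p of a list, 6 regulators whatever their p (Nr1h4, Nr0b2, Nr1i2, Nr1i3, Hnf4a and Nfe2l2), and the 3 genes closest to each transporter. Apoa1, Hal, Cyp7a1, Nqo1, Gclc and Gclm were named outside these rules, to show the limits of their lists. Alternatives were other filters, pseudocounts, scalings and probe set summaries, eBayes without the trend, no week block, and each week or array left out. Promoter windows came from RefSeq, GRCm38.p6, and 1 motif searched is not reported here. The script was tested on simulated data with 200 changed probe sets.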

Additional observations from a re-analysis of the deposited data

Results flagged for a closer look

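In 3 probe sets the direction of 1 week was opposite to that of the other 3 weeks, and none of these differences between weeks was tested, since each week had 1 array per genotype. The brightest Slco1b2 probe set had a Pemt−/− to Pemt+/+ ratio of 1.023 at week 2 and was lower in Pemt−/− liver in weeks 1, 3 and 4. A dimmer Slco1b2 probe set had a ratio of 1.027 at week 2 and was lower in the other weeks, so that both departed in the same week. This was not particular to Slco1b2. The summed hepatocyte markers of the Pemt−/− arrays were 662000 at week 2, against 532900, 532500 and 499200 at weeks 1, 3 and 4. Their median log2 difference was also nearest 0 at week 2, at -0.18. Abcc3 had a ratio of 0.8827 at week 1 and was higher in Pemt−/− liver in weeks 2, 3 and 4. By the rule used, no array stood far from the other 3 of its genotype in any of the 30 groups looked at, the 15 probe sets in each genotype. Each group held 1 array per week, so the check could not part a deviant array from a change over the weeks. Slco1a4 in Pemt+/+ liver, for example, was 233 at week 4 after 573, 622 and 696.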

How the results depend on the processing

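The calls of Slco1a1 (both probe sets), Slco1a4, Slc22a7 and Abcc4 kept their direction and their side of the threshold under every alternative run. No transporter changed direction. With the intensity trend left out of eBayes, 3 of the 10 lower probe sets passed (2 of the 3 higher), and the calls of Slc10a1 (adjusted p = 0.0569), Slco1b2 (0.123 and 0.088 for its 2 called probe sets), Slco2b1 (0.0575), Abcb11 (0.0794) and Abcc2 (0.0751) were lost. Leaving out 1 week gave 3 to 10 lower and 2 to 4 higher, with 3 lower without week 3 and 6 without week 4. Without the week block the counts were 10 lower and 3 higher, as with it. The count of Pemt−/− slopes, 1 as reported, was 0 with no filter, with either centring, without the trend and by gene means, 2 by quantile normalization or a pseudocount of 64, 3 with a filter at the 60th percentile, and 0 to 4 with 1 array left out. Counts of slope differences and Pemt+/+ slopes were 0 under every alternative run. With each array centred on the median of the probe sets kept, chosen after seeing the data, the median of all probe sets moved from 0.02 to -0.14 and the share of calls that were higher from 63.8% to 37.6%. Over all probe sets, 2788 were higher and 1584 lower, against 1715 and 633 without the trend and 1320 and 480 without week 3. Lower genes of bile acid synthesis numbered 7 by quantile normalization and 4 without the trend, against 11, and the 1 higher gene did not pass without the trend. By gene means 1 trafficking gene was higher, against 2. Regulators that were lower numbered 2 to 8, against 4, trafficking genes that were lower 0 or 1 under 5 alternatives, against 3, and other transporters 3 in each direction without the trend, against 7. Weekly ratios of 2 or more numbered 9, or 8 to 10 under the alternatives, and those of 0.5 or less 16, or 15 to 21. The cause of these changes was not tested.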
